A study of Homo sapiens with 58 samples.

Results

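Cells at Day3 of a directed differentiation, labelled as somite, were compared across all genes with the undifferentiated embryonic stem cells at Day0 from which they were made. The labels put 3 libraries in each group, 6 of the 58 in the series, and the deposited table holds 19084 genes. All came from H1, an established human embryonic stem cell line of wild-type genotype. Before harvest, the Day3 cells had been through 3 media. The medium of the first day was E8 with activin A at 100 ng/mL and the Wnt activator CHIR99021 at 3 µM. For presomitic mesoderm it was replaced by E6 (E8 that lacks FGF2 and TGFβ1) containing CHIR99021 at 3 µM, the activin and nodal receptor blocker A83-01 at 2 µM, and FGF2 and the BMP antagonist NOGGIN at 100 ng/mL each. For somite it was E6 containing A83-01 at 2 µM, NOGGIN at 100 ng/mL, the MEK inhibitor PD0325901 at 1 µM and the Wnt inhibitor IWR1 at 2.5 µM. The Day0 cells stayed in E8 alone. Base medium, agents and cell state all differ between the groups and cannot be told apart. Nothing in the labels ties replicates to separate cultures, and the p-values therefore describe the spread between libraries, which may be technical.

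Human embryonic stem cells are held in the pluripotent state by a small set of transcription factors, with POU5F1, SOX2 and NANOG at its centre, and by FGF and activin or nodal signals from the medium. Somites are the blocks of paraxial mesoderm that bud from the presomitic mesoderm and give rise to vertebrae, ribs, skeletal muscle and dermis. The cells that leave the stem cell state lose an epithelial sheet with E-cadherin, pass through mesenchymal presomitic mesoderm and, in the embryo, gather again as epithelial somites under TCF15 and PAX3.

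Levels are given as CPM, counts scaled to a common normalised library total, as single libraries in the order of replicates 1, 2 and 3 or as the mean ± SD (n = 3). A gene was called when edgeR's quasi-likelihood test gave a Benjamini-Hochberg adjusted p under 0.05 and the log2 fold change was at least 1 in size. Total expected counts were 4.52 to 7.81 M at Day3 and 5.66 to 7.65 M at Day0. Across genes on log2 CPM, libraries of the same day correlated at r 0.922 to 0.933 at Day3 and 0.94 to 0.962 at Day0, and libraries of different days at 0.813 to 0.846. A pair of libraries stood apart. An index of near-identical gene copies (the mean centred log2 level of 15 such genes) was -2.11 in Day3 replicate 3 against 0.44 and 0.601 in the other Day3 libraries, and -1.26 to -0.859 at Day0. In Day0 replicate 1, 32 genes had at least 5 CPM and over 10 times the level of both other Day0 libraries, against 3 and 5 such genes in those libraries and 3 to 14 in the Day3 libraries. They include the developmental regulators FOXC1, TBX5, FOXA1 and PAX7 and the Notch ligand DLL1, named after their values were seen. Leaving out Day3 replicate 3 left 1778 genes called, 1496 of them also called with all libraries, and leaving out Day0 replicate 1 left 1614, 1438 of them shared. Of markers of the labels, the Day0 libraries held POU5F1, NANOG and TDGF1 and the Day3 libraries MEOX1, TCF15 and PAX3. PAX1, on both the somite list and the list of the later sclerotome, was at 0 at Day3. HES7, of the presomitic list, and MYF5 and MYOD1, of the muscle that somites later form, were near or at 0 at Day3. In bulk RNA, fewer cells of a type and less RNA per cell cannot be told apart.

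Of 12765 genes tested, 1807 (14.2%) were called, 902 (7.07%) higher and 905 (7.09%) lower at Day3, and the median log2 fold change was 0.04. The 3 Day3 and 3 Day0 libraries did not overlap for 5344 genes (41.9%). A total of 4041 genes (31.7%) were kept within 2-fold, meaning that they were not called and that the 95% interval of their log2 fold change lay between -1 and 1. The remaining 6917 were neither called nor held within that interval, and are termed unresolved. Whether a gene is kept thus depends also on the width of its interval. The counts of each gene list below stand beside these shares of all genes tested: 7.07% higher, 7.09% lower and 31.7% kept. The plot of Day3 against Day0 levels shows the called genes on both sides of a dense diagonal.

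**Figure D1:**
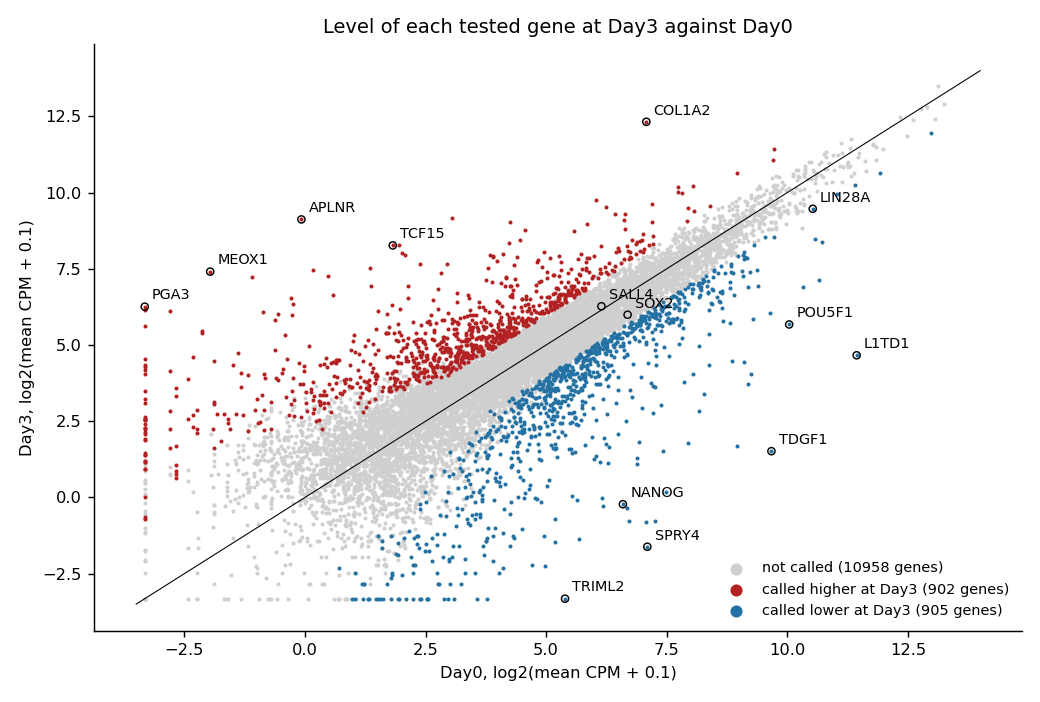
Mean level of each of the 12765 tested genes at Day3 (vertical axis) against Day0 (horizontal axis), both as log2(mean CPM + 0.1), with the line of equal levels. Red points are the 902 genes called higher at Day3 and blue points the 905 called lower; PGA3 and MEOX1 lie far above the line, TRIML2, TDGF1 and L1TD1 far below it, and SALL4 and SOX2 close to it.

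Among genes that reached 20 CPM and did not overlap between the groups, the 10 largest rises were headed by PGA3 and PGA5, which encode pepsinogen A, the inactive form of the stomach protease pepsin. PGA3 had 109.5, 52.1 and 67.5 CPM at Day3, against 0, 0 and 0 CPM at Day0. PGA5 had 107, 51.2 and 54.2 CPM at Day3, against 0, 0 and 0 CPM at Day0. Both were present in every Day3 library and listed at 0 in every Day0 library after rounding (adjusted p = 2.45e-06 and 3.88e-06).

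The human genome holds another copy, PGA4, and reads from these copies could be split in the counting. The coding sequences of the 3 genes, 1167 bases each in GENCODE 29, differ at 7 positions in all, 2 of them between PGA4 and PGA3, 7 between PGA5 and PGA3 and 5 between PGA5 and PGA4. A stretch of coding bases 685 to 804 is shown for each because it holds 2 of those 7 positions, in capitals, and is otherwise identical in the 3 genes, on chromosome 11.
PGA3: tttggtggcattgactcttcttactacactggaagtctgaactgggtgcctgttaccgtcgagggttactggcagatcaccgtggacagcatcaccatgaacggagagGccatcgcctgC
PGA4: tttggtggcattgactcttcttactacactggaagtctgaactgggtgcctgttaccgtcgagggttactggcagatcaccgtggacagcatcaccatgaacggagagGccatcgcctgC
PGA5: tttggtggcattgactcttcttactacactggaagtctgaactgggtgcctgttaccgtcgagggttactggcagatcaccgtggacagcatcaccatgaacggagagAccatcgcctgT
At Day3 the expected counts were divided between PGA3 (1435.5 over the 3 libraries) and PGA5 (1302.5), with 0 for PGA4. At Day0 they lay almost wholly with PGA4 (9.84), with 0.16 for PGA3 and 0 for PGA5. The level of each copy is therefore uncertain, whereas their sum does not depend on the split. Summed over the 3 copies, the level was 216.5, 103.3 and 121.7 CPM at Day3, against 0.128, 1.51 and 0 CPM at Day0 (mean 147 ± 60.7 and 0.546 ± 0.838 CPM, SD, n = 3 each). PGC, the gene of the other gastric pepsinogen, was at 0 in all 6 libraries.

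Of the other large rises, MEOX1, RIPPLY1 and ALDH1A2 are on the somite list and APLNR on the mesendoderm list. MEOX1, a homeobox regulator of somites, had 146, 144 and 219 CPM at Day3, against 0.128, 0.168 and 0.172 CPM at Day0. Only 3 counts lay behind the Day0 value, so the change is given as a ratio of pooled CPM (1165, 95% counting interval 398 to 5649.6; adjusted p = 1.62e-10). The 3 Day3 libraries were alike and far above the Day0 libraries. RIPPLY1, a repressor that closes the segment border, had 25.4, 73.4 and 111 CPM at Day3, against 0.128, 0 and 0 CPM at Day0, with 1 count at Day0 (ratio 1489, 95% counting interval 267 to 58868; adjusted p = 5.25e-06). DMRT2, a regulator of the dermomyotome, the somite layer that forms muscle and dermis, had 8.09, 28.2 and 33.3 CPM at Day3, against 0, 0 and 0 CPM at Day0, and was at least 161-fold higher (adjusted p = 5.34e-05). ALDH1A2, which makes retinoic acid in trunk mesoderm, had 93.7, 151 and 209 CPM at Day3, against 0.769, 0.168 and 0.172 CPM at Day0 (353-fold, adjusted p = 5.32e-08), and the fold was 776 without Day0 replicate 1. APLNR, the apelin receptor of early mesoderm, had 375, 496 and 797 CPM at Day3, against 0.513, 1.17 and 0.861 CPM at Day0 (657-fold, adjusted p = 1.1e-10).

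TRH, BMPER and CFC1B completed the list. TRH, the precursor of thyrotropin-releasing hormone, had 79.8, 24 and 44 CPM at Day3, against 0, 0 and 0 CPM at Day0, at least 323-fold higher (adjusted p = 7.42e-06). BMPER, a secreted binder of BMP proteins, had 75.5, 19.2 and 38.4 CPM at Day3, against 0.384, 0 and 0 CPM at Day0, with all 3 of its Day0 counts in replicate 1 (ratio 290.0, 95% counting interval 98.9 to 1409; adjusted p = 0.000122). CFC1B, a copy of the nodal co-receptor gene CFC1, had 42.4, 7.95 and 10.5 CPM at Day3, against 0, 0 and 0 CPM at Day0, at least 126-fold higher (adjusted p = 0.000306); Day3 replicate 1 was the high library. The coding sequences of CFC1B and CFC1 differ at 2 of 576 bases and CFC1 was listed at 0 in all 6 libraries, so the copy is uncertain. The plot of the largest changes gives every library of these 10 genes, which were picked for groups that do not overlap.

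**Figure D2:**
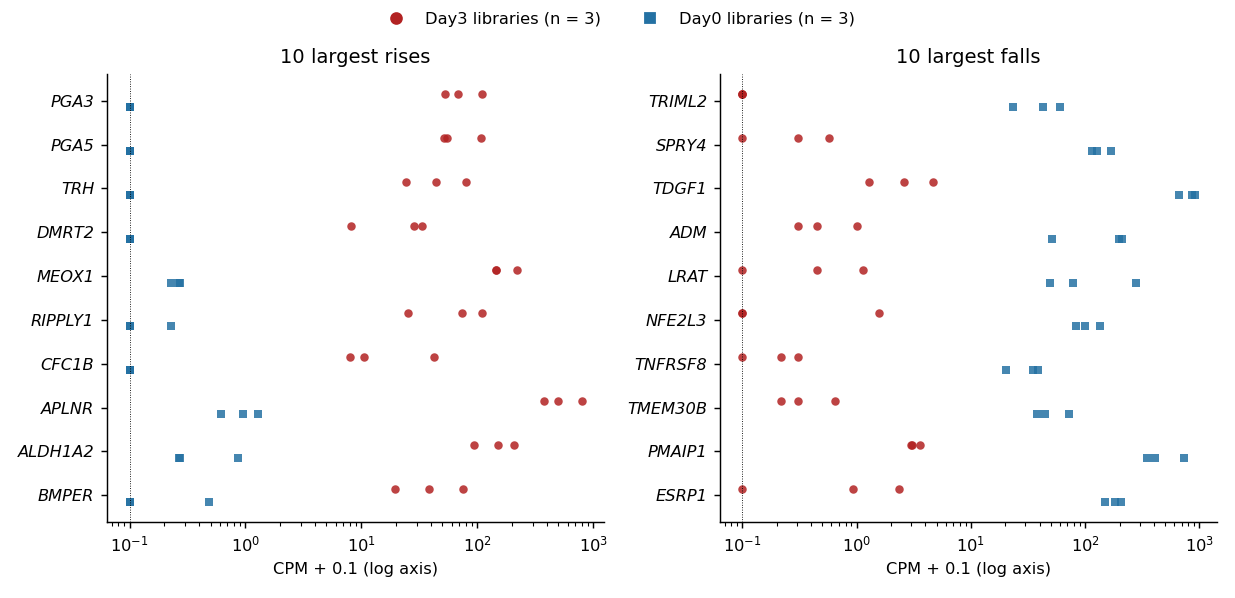
CPM + 0.1 on a log axis in each of the 3 Day3 libraries (red circles) and 3 Day0 libraries (blue squares) for the 10 largest rises and the 10 largest falls. The dotted line marks 0 CPM; PGA3, PGA5, TRH, DMRT2 and CFC1B sit on it in every Day0 library and TRIML2 in every Day3 library.

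Of the 10 largest falls, picked in the same way, TRIML2, TDGF1 and LRAT are on the stem cell lists, SPRY4 on the FGF-ERK list, ESRP1 on the epithelial list and ADM on the hypoxia list. TRIML2, a tripartite motif family gene, had 0, 0 and 0 CPM at Day3, against 60.0, 23.3 and 42.4 CPM at Day0, at least 275-fold lower (adjusted p = 9.85e-06). SPRY4, a feedback inhibitor of FGF signalling that ERK induces, had 0, 0.209 and 0.468 CPM at Day3, against 114, 169.9 and 127 CPM at Day0 (479.7-fold lower, adjusted p = 1.26e-09), and was 1122-fold lower without Day3 replicate 3. TDGF1, the nodal co-receptor also called CRIPTO, had 2.52, 4.6 and 1.17 CPM at Day3, against 667, 865 and 912 CPM at Day0 (317-fold lower, adjusted p = 5.65e-09). The Day0 libraries were all above 600 CPM and the Day3 libraries all under 5 CPM. ADM, the gene of the vasodilator peptide adrenomedullin, had 0.899, 0.209 and 0.351 CPM at Day3, against 51.5, 197 and 209.5 CPM at Day0 (303-fold lower, adjusted p = 7.7e-07; 473-fold without Day3 replicate 1).

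ESRP1, a splicing regulator of epithelial cells, had 0, 0.836 and 2.22 CPM at Day3, against 204, 182 and 150.1 CPM at Day0 (151-fold lower, adjusted p = 2.17e-08; 432-fold without Day3 replicate 3). PMAIP1, the apoptosis gene NOXA, had 2.88, 2.93 and 3.51 CPM at Day3, against 731, 405 and 346 CPM at Day0 (156-fold lower, adjusted p = 5.72e-10), with close agreement among the Day3 libraries. LRAT, which esterifies retinol, had 0, 1.05 and 0.351 CPM at Day3, against 277, 48.7 and 77.5 CPM at Day0 (298-fold lower, adjusted p = 1.56e-05). Its Day0 libraries were uneven, and the fold was 138 without Day0 replicate 1 and 578 without Day3 replicate 2. NFE2L3, a bZIP transcription factor, had 0, 1.46 and 0 CPM at Day3, against 99.7, 134 and 82.7 CPM at Day0 (256-fold lower, adjusted p = 1.68e-06), and all its Day3 counts lay in replicate 2; the fold was 148 without Day3 replicate 3. TNFRSF8, the receptor CD30, had 0, 0.209 and 0.117 CPM at Day3, against 38.6, 34.6 and 20.3 CPM at Day0, with 2 counts at Day3 (ratio of Day0 to Day3 302, 95% counting interval 83.2 to 2497; adjusted p = 2.39e-05). TMEM30B, a subunit of lipid flippases, had 0.539, 0.209 and 0.117 CPM at Day3, against 71.8, 44 and 37.6 CPM at Day0 (174-fold lower, adjusted p = 2.69e-07; 292-fold without Day3 replicate 1).

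Most genes of the stem cell state fell, and a minority stayed. Of 20 pluripotency core genes 19 were tested (UTF1 was at 0 in all 6 libraries), and 12 fell, 1 was kept and 6 were unresolved, with a median log2 fold change of -3.42 against 0.04 over all genes tested. Of 40 other stem cell genes 39 were tested, and 32 fell, 2 were kept and 5 were unresolved (median -2.50). Together 44 of 58 fell (75.9%), against 7.09% of all genes tested. With edgeR 0 of the 58 were called higher, 3 were higher at an unadjusted p under 0.05, and DESeq2 also called 0 higher. The summed level of the core list was 1650 to 1746 CPM over the Day3 libraries and 9825 to 10880 CPM over the Day0 libraries. Both lists were drawn up with earlier results of these data known.

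The central factor POU5F1 (OCT4) had 32.9, 70.5 and 49.5 CPM at Day3, against 1355, 831 and 968 CPM at Day0 (20.7-fold lower; log2 -4.37, SE 0.252, adjusted p = 3.63e-09). By mean TPM, a level per transcript length, it ranked at percentile 85.9 of tested genes at Day3 and 99.5 at Day0. NANOG, its partner, had 0.899, 1.25 and 0.117 CPM at Day3, against 153, 63.6 and 72.4 CPM at Day0 (141-fold lower; log2 -7.14, SE 0.688, adjusted p = 1.53e-06; 88.5-fold without Day3 replicate 3). That put NANOG at percentile 5.5 by mean TPM at Day3 and 88.2 at Day0. SOX2, which binds DNA beside POU5F1, had 41.7, 107 and 42.2 CPM at Day3, against 101, 100.4 and 108 CPM at Day0 (log2 -0.70, 95% interval -1.40 to -0.01; adjusted p = 0.146) and was unresolved, with Day3 replicate 2 at the Day0 level. With that library left out it passed the test (log2 -1.29, adjusted p = 0.00521). POU5F1 and NANOG have processed copies elsewhere in the genome, so reads may have been split or lost in the counting.

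The sequence upstream of NANOG is shown because a joint OCT4-SOX2 element there is a textbook site of this circuit. In RefSeq's promoter table (GRCh38.p14, chr12:7789152-7789401, + strand), the 250 bases before the start of NANOG read as follows, with the single match to the composite motif in capitals, its first base 118 bases before the start.
NANOG: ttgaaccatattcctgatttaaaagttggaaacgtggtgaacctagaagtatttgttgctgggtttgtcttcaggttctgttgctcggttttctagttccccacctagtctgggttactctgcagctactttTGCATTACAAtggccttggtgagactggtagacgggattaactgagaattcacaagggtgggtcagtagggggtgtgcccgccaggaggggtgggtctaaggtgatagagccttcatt
Searched on both strands, this motif was found in 60 of 27305 such windows (0.22%), in 10 of the 9506 tested genes that the table held (0.105%), and in 2 of 661 called lower (0.303%), NANOG and, named because the count is small, PIPOX. The octamer ATGCAAAT was found in 123 of the 9506 (1.29%) and in 15 of 661 called lower (2.27%). A match is a description of letters and not a measured site.

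Of the other core genes, TDGF1 is described above, and the RNA-binding L1TD1 had 34.5, 18 and 23.2 CPM at Day3, against 2611, 2600.3 and 3112 CPM at Day0 (109.8-fold lower; log2 -6.78, SE 0.369, adjusted p = 1.64e-09). The germ-cell and stem cell regulator PRDM14 had 0.719, 0 and 0.819 CPM at Day3, against 54, 25.2 and 29.8 CPM at Day0 (62.8-fold lower, adjusted p = 5.13e-05). The chromatin protein DPPA4 fell 12.1-fold (66.4 ± 12.5 CPM at Day3 and 803 ± 101 CPM at Day0; adjusted p = 1.64e-09), the de novo DNA methyltransferase DNMT3B 11.5-fold (141 ± 10.6 CPM at Day3 and 1621 ± 264 CPM at Day0; adjusted p = 1.62e-10) and the telomere-binding TERF1 10.7-fold (57.9 ± 4.24 CPM at Day3 and 621 ± 44.5 CPM at Day0; adjusted p = 1.26e-09). ZFP42 (REX1), a zinc finger marker of stem cells, fell 3.28-fold and SALL2 2.67-fold (adjusted p = 0.000238 and 2.45e-05). GDF3, a nodal-related ligand, averaged 0.247 ± 0.0916 CPM at Day3 and 4.89 ± 4.65 CPM at Day0 (adjusted p = 0.015), a call that was lost without Day3 replicate 1 (adjusted p = 0.0579) and Day0 replicate 1 (adjusted p = 0.119). LIN28A, which blocks let-7 maturation, had 694, 705 and 725 CPM at Day3, against 1289, 1539.6 and 1599 CPM at Day0 (2.08-fold lower; log2 -1.06, SE 0.158, adjusted p = 0.000139). LIN28A sat at the limit of the call, and fell just short of it without Day0 replicate 3 (1.999-fold lower, adjusted p = 0.00113). The Day3 libraries of LIN28A agreed closely, and it stood at percentile 97.2 by mean TPM at Day3 and 98.8 at Day0.

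The core genes that were not called are transcription factors or chromatin proteins that, apart from DPPA2, other embryonic lineages also use. SALL4, a zinc finger partner of POU5F1, had 71.4, 67.5 and 92.3 CPM at Day3, against 52.8, 84.3 and 75.1 CPM at Day0 (log2 0.13, 95% interval -0.41 to 0.66). It was kept within 2-fold under every setting that gives an interval, and the libraries of both days overlapped. ZIC2, a zinc finger factor of early neural tissue, had 71.2, 63.4 and 79.7 CPM at Day3, against 117, 132 and 127 CPM at Day0 (log2 -0.81, interval -1.18 to -0.43). It passed at an adjusted p under 0.05 (adjusted p = 0.00355) but not the limit on fold, and its Day3 libraries lay below all Day0 libraries. OTX2 had 77.1, 71.7 and 26.7 CPM at Day3, against 26.9, 43 and 46.7 CPM at Day0 (interval -0.10 to 1.27), with Day3 replicate 3 below the other Day3 libraries. DPPA2 and FOXD3 were low in both groups, at 1.18 CPM at Day3 against 5.01 CPM at Day0 and 0.517 CPM at Day3 against 5.64 CPM at Day0. FOXD3 missed the threshold (adjusted p = 0.0599), and was called lower with DESeq2 (adjusted p = 0.0324) and without Day3 replicate 2 (adjusted p = 0.0414).

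**Figure D3:**
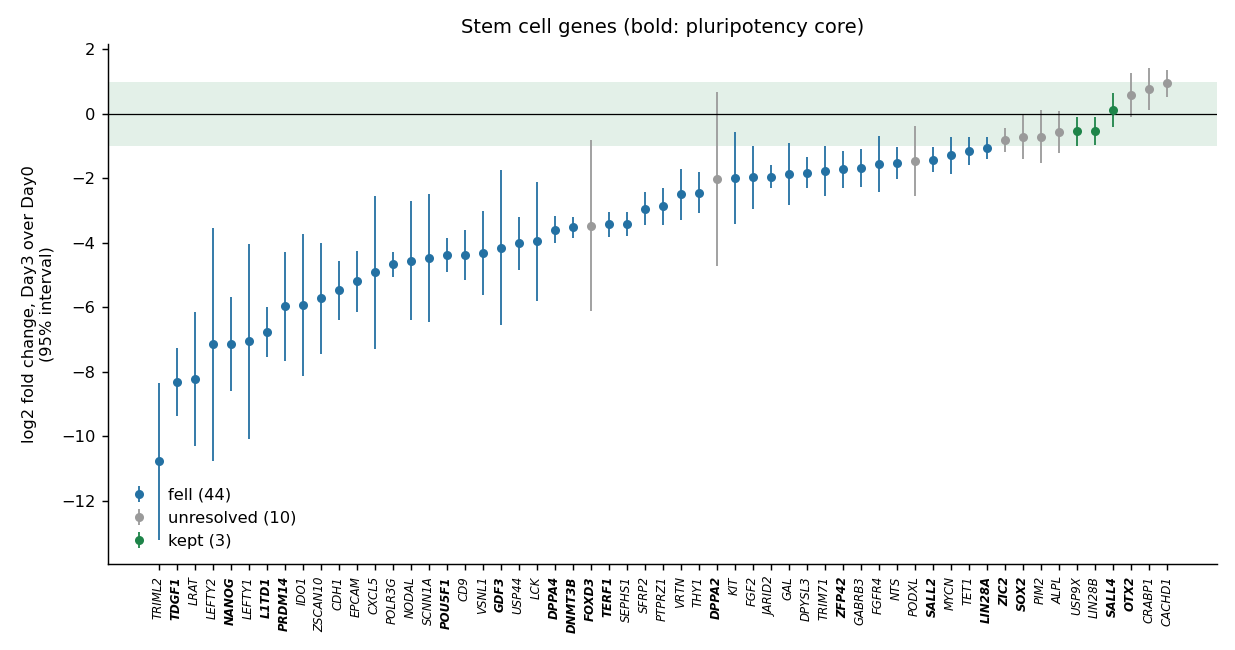
Log2 fold change of Day3 over Day0 with its 95% interval for 57 of the 58 tested stem cell genes, in order of size, with names of the pluripotency core in bold. Blue genes fell (44), green genes were kept within the shaded band from -1 to 1 (3) and grey genes were unresolved (10 of those shown).

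Among the other stem cell genes, POLR3G, a subunit of RNA polymerase III, had 25, 19.7 and 19.9 CPM at Day3, against 569, 539.6 and 537 CPM at Day0 (25.5-fold lower; log2 -4.67, SE 0.187, adjusted p = 1.1e-10), and SEPHS1, a selenophosphate synthetase-like gene, had 133, 116 and 113 CPM at Day3, against 1303, 1255 and 1305 CPM at Day0 (10.7-fold lower; log2 -3.41, SE 0.182, adjusted p = 1.36e-09). The libraries of each day were close to each other for both genes. Only USP9X, a deubiquitinase (interval -0.9975 to -0.09), and LIN28B, the relative of LIN28A (interval -0.98 to -0.10), were kept. USP9X had 246, 311 and 218 CPM at Day3, against 260.3, 429 and 439.7 CPM at Day0, and LIN28B had 106, 162 and 215 CPM at Day3, against 229.7, 235 and 237 CPM at Day0. For LIN28B the 3 Day3 libraries lay below the 3 Day0 libraries, so kept here means within 2-fold and not equal. Both sat at the edge of the kept class. LIN28B was unresolved in the fit on the 6 libraries alone and without any 1 library other than Day3 replicate 1. USP9X was unresolved in the fit on the 6 libraries alone, with RLE size factors, with the copy index as a covariate, and without Day3 replicate 1, Day3 replicate 2 or Day0 replicate 1. The unresolved members were PODXL, PIM2, ALPL, CRABP1 and CACHD1, named because they are few; PODXL, a sialomucin of the stem cell surface, averaged 458 ± 333 CPM at Day3 and 1258 ± 389.8 CPM at Day0 (log2 -1.46, interval -2.53 to -0.38).

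A fall did not mean absence. Of the 58 genes, 51 averaged at least 20 CPM at Day0 and 34 still did at Day3, and of the 44 that fell 22 were still at or above 20 CPM at Day3. At the other end 13 genes were under 1 CPM at Day3, among them NANOG, PRDM14, TRIML2 and LRAT. The 22 include POU5F1, DNMT3B, DPPA4, TERF1, LIN28A, POLR3G and SEPHS1.

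RNA-binding proteins of stem cells divided as well. Of 11 tested, 4 fell (ESRP1, L1TD1, LIN28A and TRIM71) and 5 were kept, against 7.09% and 31.7% of all genes tested. Besides LIN28B the kept ones were IGF2BP1 at 378 CPM at Day3 against 393 CPM at Day0, IGF2BP2 at 180.3 CPM at Day3 against 163 CPM at Day0 and IGF2BP3 at 159.8 CPM at Day3 against 215 CPM at Day0, which bind and stabilise mRNAs in embryonic cells, and the splicing factor RBFOX2 at 173 CPM at Day3 against 133 CPM at Day0; these 4 were chosen after their values were seen. Of 8 enzymes of DNA methylation 2 fell, DNMT3B and the 5-methylcytosine oxidase TET1 (40.9 ± 8.57 CPM at Day3 and 91.1 ± 0.355 CPM at Day0; adjusted p = 0.000751). Of the remaining 6, DNMT1, UHRF1, TDG and TET3 were kept.

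Most somite genes rose. Of 23 somite genes 19 were tested and 16 were called higher, with a median log2 fold change of 4.13, against 7.07% called higher over all genes. Over the 3 Day3 libraries their summed level was 2271 to 2550 CPM, against 186 to 328.5 CPM over the Day0 libraries. TCF15 (paraxis), the bHLH factor needed for epithelial somites, had 374, 271 and 278 CPM at Day3, against 1.28, 4.36 and 4.65 CPM at Day0 (92-fold; log2 6.52, SE 0.537, adjusted p = 2.69e-07). PAX3, a paired-box factor of the dermomyotome, had 50.2, 82.8 and 104 CPM at Day3, against 2.69, 2.52 and 5 CPM at Day0 (23.2-fold; log2 4.54, SE 0.379, adjusted p = 3.03e-07). CDH11, a cadherin of mesenchymal cells, had 410.2, 259 and 315 CPM at Day3, against 24.6, 12.9 and 18.4 CPM at Day0 (17.5-fold; log2 4.13, SE 0.273, adjusted p = 1.93e-08). In all 3 genes every Day3 library was more than 10 times every Day0 library.

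The forkhead genes FOXC1 and FOXC2, which act together in somite formation, also rose. FOXC1 had 223, 216 and 286 CPM at Day3, against 43.7, 0.336 and 0.689 CPM at Day0, which made its fold 15.6 with all libraries (adjusted p = 0.00304) and 452 without Day0 replicate 1 (adjusted p = 1.36e-10). FOXC2 had 29.7, 21.7 and 29 CPM at Day3, against 0, 0.839 and 0 CPM at Day0 (93.3-fold, adjusted p = 0.00166; 59.9-fold without Day0 replicate 1), with its Day0 counts in replicate 2 alone, and DESeq2 did not call it (adjusted p = 0.0759). The 3 somite members not called were CER1, TBX22 and TBX18, all under 3 CPM at Day3. Of the 4 not tested, the sclerotome regulators PAX1 and PAX9 had 0 and 45 expected counts over the Day3 libraries and 0 each over the Day0 libraries. UNCX, a marker of the posterior half-somite, had 34, 4 and 2 counts at Day3 and 0 at Day0, and PAX7 had 0, 8 and 4 counts at Day3 and 55, 0 and 0 at Day0.

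Genes of the sclerotome and muscle that somites later form rose in part (7.07% of all genes tested were called higher). Of 7 tested sclerotome genes 4 were called higher, with COL2A1, a cartilage collagen, at 589, 365 and 610.2 CPM at Day3, against 13.6, 21.8 and 21.7 CPM at Day0 (27.5-fold; log2 4.78, SE 0.287, adjusted p = 5.65e-09) and TWIST1, a bHLH factor of mesenchyme, at 25.7, 14 and 15.4 CPM at Day3, against 0, 0.336 and 1.55 CPM at Day0 (adjusted p = 0.00347). The fold of TWIST1 was 29.5, 105 without Day0 replicate 3 and 19.1 without Day0 replicate 1. Of 10 tested muscle genes 6 were called higher, among them the troponin TNNT1 at 195, 138 and 354 CPM at Day3, against 38.6, 58.1 and 81.2 CPM at Day0 (3.87-fold, adjusted p = 0.0023) and the actin ACTC1 at 82.7, 105 and 43.4 CPM at Day3, against 20.5, 25.3 and 33.8 CPM at Day0 (2.9-fold, adjusted p = 0.00253). Of the factors that define muscle cells, MYF5 and MYOD1 had 0 counts in all 6 libraries and MYOG had 3 at Day3 and 0 at Day0. MYF6, not tested, was low but above 3 counts in every Day3 library, with 6, 12 and 4, and had 0 at Day0. A count of 0 allows up to 0.351 to 0.627 CPM in a Day3 library and 0.384 to 0.517 CPM in a Day0 library.

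Of 13 presomitic genes tested 7 were called higher, some of them on levels near the floor, against 7.07% of all genes tested. The Notch ligand DLL1 had 234, 164 and 214 CPM at Day3, against 19.6, 1.51 and 1.55 CPM at Day0; its fold was 25.8 with all libraries (adjusted p = 0.000103) and 131 without Day0 replicate 1 (adjusted p = 7.76e-08). LFNG, the glycosyltransferase that tunes Notch, had 45.3, 54.4 and 68.5 CPM at Day3, against 9.74, 20.6 and 18.8 CPM at Day0 (3.44-fold, adjusted p = 0.000304). DLL3, a Notch ligand that acts within the cell, had 16.5, 25.1 and 32.5 CPM at Day3, against 1.28, 0.839 and 7.75 CPM at Day0 (7.65-fold, adjusted p = 0.00198; 22.5-fold without Day0 replicate 3). TBX6, which commits cells to paraxial mesoderm, had 1.08, 0.209 and 0.234 CPM at Day3, against 0, 0 and 0 CPM at Day0, and CDX1, a caudal homeobox gene, had 0, 0 and 1.64 CPM at Day3, against 0, 0 and 0 CPM at Day0. Both were called (adjusted p = 0.0307 and 0.0449) on levels near the floor. The call of TBX6 was lost without Day3 replicate 1 or any 1 Day0 library (adjusted p = 0.0719 to 0.128), and that of CDX1, whose Day3 counts came from replicate 3 alone, without that library or any 1 Day0 library (adjusted p = 0.0979 to 1). HES7, the repressor of the segmentation clock that the series is named for, was not tested, with 8 expected counts over the Day3 libraries, all in replicate 2, and 2 over the Day0 libraries. MSGN1, a master factor of presomitic mesoderm, had 0.18, 0 and 0.468 CPM at Day3, against 0, 0 and 0.345 CPM at Day0 (adjusted p = 0.595).

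Markers of other tissues were mixed, and some of the lists lacked defining members. Over all genes tested 7.07% were called higher and 7.09% lower. Of 16 mesendoderm genes 5 were called higher and 1 lower, and their summed level, 449 to 890.7 CPM over the Day3 libraries and 14.3 to 72.4 CPM over the Day0 libraries, was mostly APLNR. GATA6, a factor of endoderm and heart, had 24.5, 12.5 and 7.49 CPM at Day3, against 0.256, 0 and 0 CPM at Day0, with 2 counts at Day0, both in replicate 1 (ratio 135, 95% counting interval 36.9 to 1118; adjusted p = 5.13e-06). T (brachyury) had 0.899, 1.05 and 0.351 CPM at Day3, against 1.03, 0.336 and 0.172 CPM at Day0 (adjusted p = 0.788), with overlapping groups. Of 6 endoderm genes 2 were called higher, GATA6 and the chemokine receptor CXCR4 at 43.7, 46.2 and 19.4 CPM at Day3, against 12, 12.3 and 6.89 CPM at Day0 (3.47-fold, adjusted p = 0.00075); SOX17 and FOXA2 had 0 counts in every Day3 library, and the list summed to 35.2 to 98.7 CPM at Day3 and 29.1 to 56.4 CPM at Day0.

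Of 16 neural genes 3 were called higher and 1 lower, against 7.07% and 7.09% of all genes tested. DESeq2 called 5 higher and 1 lower. With edgeR 7 were higher and 2 lower at an unadjusted p under 0.05. NES, an intermediate filament of progenitors, had 1344, 1493 and 1939 CPM at Day3, against 541, 414 and 537 CPM at Day0 (3.2-fold, adjusted p = 0.000126), and STMN2, a neuronal microtubule gene, had 324, 335 and 148 CPM at Day3, against 96, 67.8 and 110.4 CPM at Day0 (2.94-fold, adjusted p = 0.00175). The neural list summed to 2653 to 2858 CPM over the Day3 libraries and 1006 to 1442 CPM over the Day0 libraries, and its defining factors PAX6, at 27.6 CPM at Day3 against 9.67 CPM at Day0, and SOX1, at 24.6 CPM at Day3 against 10.1 CPM at Day0, were unresolved; the part of neural cells in these results was not tested. Of 7 neural crest genes 1 was higher, SNAI2, a repressor of E-cadherin that mesenchyme also uses, at 246, 87.4 and 131 CPM at Day3, against 0, 3.02 and 0.861 CPM at Day0 (125-fold, adjusted p = 9.11e-07; 388-fold without Day0 replicate 2 and 78.4-fold without Day0 replicate 1), and SOX10 had 1.08 and 2.0 counts over the Day3 and Day0 libraries. The list summed to 187.6 to 379.8 CPM at Day3 and 135.5 to 152.8 CPM at Day0.

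Of 7 lateral and cardiac genes 3 were higher and 1 lower, against 7.07% and 7.09% of all genes tested. The growth factor gene BMP4 had 16.9, 32.4 and 35.2 CPM at Day3, against 1.41, 1.51 and 2.58 CPM at Day0 (15.3-fold, adjusted p = 0.000195). The other members called higher, named because they are few, were the bHLH factor HAND1 and the atrial myosin light chain MYL7. HAND1 had 48.2, 10.5 and 1.99 CPM at Day3, against 0.256, 0 and 0.517 CPM at Day0 (adjusted p = 0.00799), and the call was lost without Day3 replicate 1, the high library (adjusted p = 0.088). MYL7 had 12.8, 1.88 and 3.04 CPM at Day3, against 0, 0 and 0 CPM at Day0 (at least 36.6-fold higher, adjusted p = 0.0029; adjusted p = 0.0177 without Day3 replicate 1). KDR, the VEGF receptor of the endothelial lineage, had 8.63, 4.81 and 3.16 CPM at Day3, against 81.5, 112 and 107 CPM at Day0 (18.4-fold lower, adjusted p = 2.88e-07); NKX2-5, TBX20 and HAND2 had 0 counts in all 6 libraries, and the list summed to 61.5 to 147.4 CPM at Day3 and 111 to 125.2 CPM at Day0. Of 5 intermediate mesoderm genes 2 were higher, the coactivator EYA1 at 30.7, 49.97 and 46 CPM at Day3, against 3.59, 1.007 and 4.65 CPM at Day0 (13.6-fold, adjusted p = 5.03e-05) and the zinc finger gene SALL1 at 263, 239 and 297 CPM at Day3, against 106, 76.5 and 80.3 CPM at Day0 (3.03-fold, adjusted p = 8.94e-05), with PAX8 at 6 counts over the Day3 libraries and 0 over the Day0 libraries (list sum 294 to 343.4 CPM at Day3, 80.7 to 114.3 CPM at Day0). EYA1 is also on the somite list and is counted there as well. Of 4 trophoblast and amnion genes 1 was higher, VTCN1 at 4.66 CPM at Day3 against 0.112 CPM at Day0 (adjusted p = 0.0331), a call lost on leaving out any 1 library (adjusted p = 0.0507 to 0.13), with CGA at 0 in all 6; the list summed to 7.72 to 13.2 CPM at Day3 and 9.23 to 37.4 CPM at Day0. Of 2 tested endothelium and blood genes edgeR called 0, with 0 at an unadjusted p under 0.05 and 0 by DESeq2. Their sum was 12.2 to 24.0 CPM at Day3 and 1.92 to 56.2 CPM at Day0. The embryonic globin HBE1, not tested, had 108, 7 and 43 counts at Day3 and 0, 0 and 4 at Day0.

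Most epithelial genes fell and most matrix genes rose. Of 22 epithelial genes 18 were called lower (median log2 -3.23) and 1 higher. CDH1 (E-cadherin) had 15.3, 11.3 and 12.4 CPM at Day3, against 665, 487 and 587 CPM at Day0 (44.5-fold lower; log2 -5.48, SE 0.43, adjusted p = 1.53e-07). EPCAM averaged 16.3 CPM at Day3 against 607 CPM at Day0, and the splicing regulator ESRP2 had 0, 0 and 1.17 CPM at Day3, against 25.5, 23.7 and 17.9 CPM at Day0. The epithelial factor GRHL2 had 0, 2.3 and 0.468 CPM at Day3, against 59.1, 39.1 and 41 CPM at Day0. The 1 that rose was the keratin KRT19 at 329.9 CPM at Day3 against 118 CPM at Day0 (log2 1.49, adjusted p = 0.000769), and the keratin KRT8 was kept at 445 CPM at Day3 against 379.7 CPM at Day0. These 5 genes after CDH1 were chosen after their values were seen. The list summed to 740.6 to 1405 CPM over the Day3 libraries and 3514 to 3815 CPM over the Day0 libraries.

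Of 25 mesenchymal and matrix genes 20 were called higher, with a median log2 fold change of 2.49. COL1A2, a chain of type I collagen, had 4931, 3925 and 6508 CPM at Day3, against 98.7, 156 and 150.1 CPM at Day0 (38-fold; log2 5.25, SE 0.245, adjusted p = 4.11e-10). COL5A1, a fibril-forming collagen, had 489, 317 and 503 CPM at Day3, against 35, 15.9 and 19.99 CPM at Day0 (18.3-fold; log2 4.19, SE 0.272, adjusted p = 1.59e-08). CDH2 (N-cadherin), which somites use in place of E-cadherin, had 512, 577 and 486 CPM at Day3, against 181, 115 and 142 CPM at Day0 (3.59-fold, adjusted p = 7.27e-07). The list summed to 11410 to 16040 CPM over the Day3 libraries and 1664 to 1937 CPM over the Day0 libraries. By mean TPM, COL1A2 stood at percentile 99.5 at Day3 and 79.3 at Day0.

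Nearly all targets of FGF and ERK signalling fell. Of 18 tested, 16 were called lower (median log2 -3.16), and edgeR called 0 higher, with 0 higher at an unadjusted p under 0.05 and 0 higher by DESeq2. The summed level was 201.1 to 315.9 CPM over the Day3 libraries and 1122 to 1881 CPM over the Day0 libraries. IL17RD, an FGF receptor antagonist, had 12.6, 6.48 and 5.03 CPM at Day3, against 188, 168 and 142 CPM at Day0 (20.9-fold lower; log2 -4.39, SE 0.326, adjusted p = 7.92e-08). SPRY4 is given above. The ETS factor ETV4 averaged 0.723 CPM at Day3 against 72.6 CPM at Day0 and the ERK phosphatase DUSP6 had 6.47, 13 and 1.64 CPM at Day3, against 314, 335 and 216 CPM at Day0, both chosen after their values were seen. The 2 uncalled members, SPRED2 and FOSL1, were at log2 -1.18 and -0.95. The Day3 medium held the MEK inhibitor and lacked FGF2, whereas E8 contains FGF2, and their parts cannot be told apart. The ETS motif CCGGAAGT was in 0 of the 11 upstream windows at hand for this list, in 13 of 669 windows of genes called higher (1.94%), in 31 of 661 called lower (4.69%) and in 676 of all 9506 (7.11%).

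Of 15 targets of BMP and TGFβ 8 were called lower and 1 higher (median log2 -2.39), against 7.09% and 7.07% of all genes tested. DESeq2 called 6 lower and 1 higher. SKIL, a feedback inhibitor of SMAD signalling, had 18.3, 25.7 and 16.4 CPM at Day3, against 361, 341 and 288 CPM at Day0 (16.5-fold lower; log2 -4.04, SE 0.274, adjusted p = 2.63e-08). TGFBI, a matrix protein first found as a TGFβ target, went the other way, with 368, 105 and 132 CPM at Day3, against 0.513, 7.72 and 7.06 CPM at Day0 (40.6-fold, adjusted p = 1.48e-05; 23.6-fold without Day3 replicate 1). Of the inhibitors of differentiation, ID1 was called lower, with 0.719, 1.05 and 0.819 CPM at Day3, against 19.6, 7.55 and 10.5 CPM at Day0 (adjusted p = 0.000812). ID2 and ID3 were kept, at 39.1 CPM at Day3 against 39.5 CPM at Day0 and 59.4 CPM at Day3 against 70.6 CPM at Day0. All 3 ID genes were chosen after their values were seen. Nodal ligands and antagonists were among those that fell: NODAL had 2.16, 0 and 0.585 CPM at Day3, against 52.8, 5.71 and 5.51 CPM at Day0 (23.4-fold lower, adjusted p = 0.00133; 6.05-fold without Day0 replicate 1, adjusted p = 0.00295, and 55.6-fold without Day3 replicate 1). LEFTY1 had 0.18, 0 and 0.117 CPM at Day3, against 45.6, 4.2 and 1.21 CPM at Day0 (adjusted p = 0.00191; adjusted p = 0.0212 without Day0 replicate 1). For both, Day0 replicate 1 was far above the other Day0 libraries. LEFTY1 and LEFTY2 are near-identical copies whose reads could be split.

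In the Notch pathway 5 of 14 tested genes were called higher, against 7.07% of all genes tested. Among them were DLL1, DLL3, LFNG and the receptor NOTCH2 at 128, 186 and 216 CPM at Day3, against 45.2, 64.8 and 60.3 CPM at Day0 (3.11-fold, adjusted p = 5.16e-05). The fifth, named because the count is small, was the target HEY1 at 146, 19.2 and 23.9 CPM at Day3, against 15, 8.22 and 8.44 CPM at Day0 (5.91-fold, adjusted p = 0.0199). It rested on Day3 replicate 1: without that library it was 2.04-fold higher and not called (adjusted p = 0.344), and the call was also lost without Day0 replicate 2 (adjusted p = 0.0778) and Day0 replicate 3 (adjusted p = 0.0764). NOTCH2 shares sequence with its partial copies in the genome, so its level is uncertain. NOTCH1 and NOTCH3 were kept.

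Wnt targets had 3 of 17 members higher and 3 lower, with a median of 0.07, against 7.07% and 7.09% of all genes tested. LEF1, a nuclear partner of β-catenin, had 28.1, 46.6 and 44.3 CPM at Day3, against 3.84, 6.04 and 1.72 CPM at Day0 (10.2-fold, adjusted p = 5.76e-06), and TNFRSF19, a TNF receptor family gene, had 39.6, 34.3 and 51 CPM at Day3, against 4.1, 1.17 and 4.31 CPM at Day0 (12.9-fold, adjusted p = 3.67e-05). AXIN2, the general feedback target, was kept at 36.7 CPM at Day3 against 40.0 CPM at Day0, chosen after its values were seen.

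Of 15 retinoic acid genes 5 were higher and 2 lower, against 7.07% and 7.09% of all genes tested. CRABP2, which carries retinoic acid to its receptor, had 249, 216 and 264 CPM at Day3, against 48.4, 27.7 and 38.6 CPM at Day0 (6.34-fold, adjusted p = 1.03e-07). The paralogous synthesis enzymes went apart: ALDH1A2 rose, as given above, and ALDH1A3 fell, with 0.18, 0.209 and 0.117 CPM at Day3, against 29.3, 6.21 and 3.62 CPM at Day0 (adjusted p = 0.00126; adjusted p = 0.0109 without Day0 replicate 1, the high library). ALDH1A3 was chosen after its values were seen.

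HOX genes, the homeobox genes that mark position from head to tail, were mostly near the floor at Day0. Of 39 listed HOX genes 12 were tested, and 9 of these were called higher (DESeq2 10), against 7.07% of all genes tested. Of the 12, 7 were at 0 in every Day0 library and passed the filter on low counts only through later days. The share called was therefore partly fixed by the filter. HOXB4 had 16.5, 4.39 and 6.79 CPM at Day3, against 0, 0 and 0 CPM at Day0 (at least 59-fold higher, adjusted p = 0.000152), and HOXB3 had 16, 4.81 and 4.8 CPM at Day3, against 0, 0 and 0 CPM at Day0 (at least 52.8-fold higher, adjusted p = 0.000239). For both, Day3 replicate 1 was the high library. They include HOXA2, HOXA3 and HOXA5 of one cluster and HOXB2, HOXB3, HOXB4, HOXB5 and HOXB7 of another, all of anterior or middle position. The call of HOXA2 was lost without Day3 replicate 1, Day3 replicate 2, Day0 replicate 1 or Day0 replicate 3 (adjusted p = 0.0533 to 0.107), and that of HOXB7 without Day3 replicate 2, Day3 replicate 3, Day0 replicate 1 or Day0 replicate 2 (adjusted p = 0.0728 to 0.14). Summed over the 12, the level was 42.9 to 67.1 CPM at Day3 and 1.90 to 5.77 CPM at Day0.

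**Figure D4:**
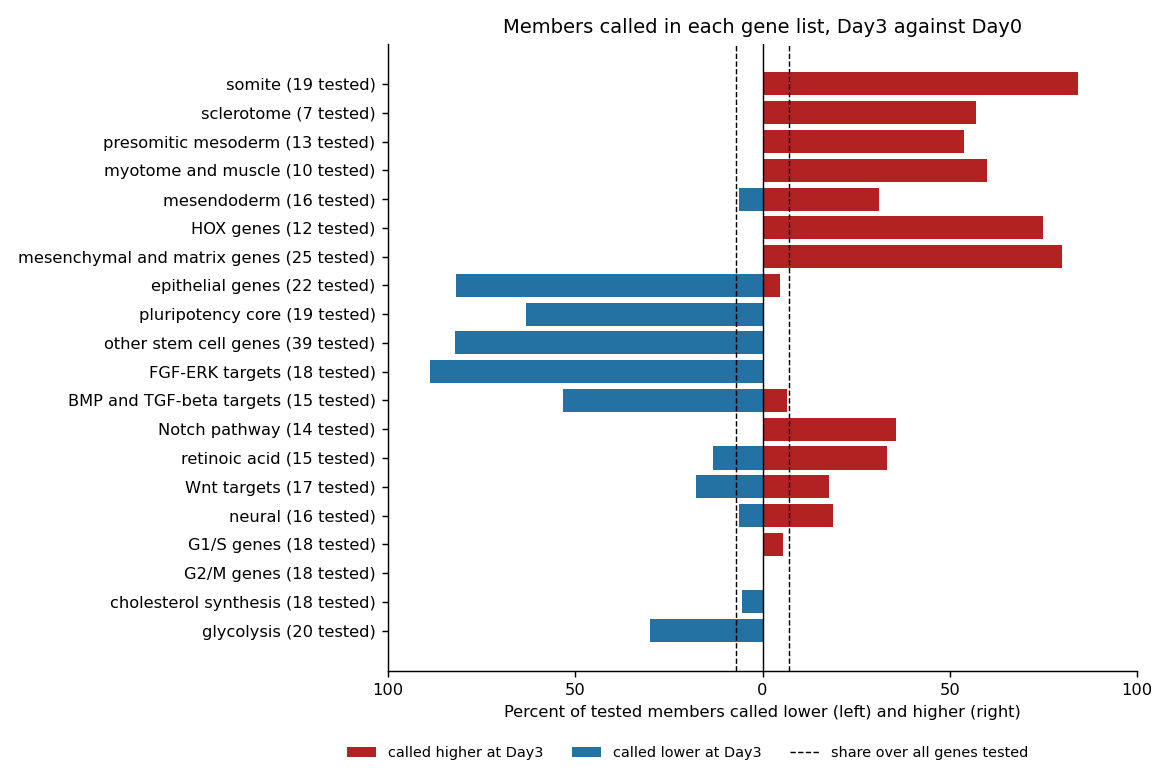
Percent of tested members called lower (blue, left) and higher (red, right) at Day3 in 20 gene lists, with the number tested beside each name. Dashed lines mark the shares over all genes, 7.09% lower and 7.07% higher. Somite, HOX and matrix genes lie to the right and epithelial, stem cell and FGF-ERK genes to the left. Of the 12 HOX genes tested, 7 were at 0 at Day0 and passed the filter on low counts only through later days.

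Some related genes parted. TDGF1 fell while CFC1B rose, CDH1 fell while CDH2 rose, and DNMT3B fell while DNMT3A, the other de novo methyltransferase, averaged 108 ± 41.5 CPM at Day3 and 178 ± 1.36 CPM at Day0 and was unresolved (log2 -0.71, interval -1.19 to -0.24). Of the SALL zinc finger genes, SALL1 rose, SALL4 was kept and SALL2 fell. FGFR4, an FGF receptor of stem cells, averaged 7.47 ± 3.71 CPM at Day3 and 22.3 ± 5.76 CPM at Day0 (2.95-fold lower, adjusted p = 0.0114; the call was lost without Day3 replicate 1, adjusted p = 0.0551, and without Day0 replicate 3, adjusted p = 0.066), and FGFR1 was kept at 266 ± 45.6 CPM at Day3 and 250.2 ± 11 CPM at Day0 (interval -0.24 to 0.42). TET1 fell, and TET2 averaged 9.11 CPM at Day3 against 5.61 CPM at Day0 and was unresolved. Not every pair parted. MEOX2 rose, as MEOX1 did, and was at least 30.7-fold higher at 4.65 CPM at Day3 and 0 at Day0 (adjusted p = 0.0121; not called by DESeq2, adjusted p = 0.208). MYCN fell 2.44-fold (adjusted p = 0.00279) and MYC 2.21-fold (adjusted p = 0.0205, lost without Day3 replicate 1, Day3 replicate 2 or Day0 replicate 2, adjusted p = 0.068 to 0.111), and SOX3, like SOX2, was unresolved at 7.93 CPM at Day3 against 14.8 CPM at Day0. CDX2 stayed near the floor, at 0.294 CPM at Day3 against 0.115 CPM at Day0.

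Most cell cycle genes were kept, against 31.7% of all genes tested. Of 18 G2/M genes 17 were kept and 1 was unresolved, and edgeR called 0; at an unadjusted p under 0.05, 2 were higher and 2 lower, and DESeq2 called 0. Of 18 G1/S genes 13 were kept and 1 was called, the thymidylate synthase TYMS at 293, 262 and 392 CPM at Day3, against 122, 116 and 113 CPM at Day0 (2.7-fold; log2 1.43, SE 0.163, adjusted p = 9.27e-06). At an unadjusted p under 0.05 with edgeR, 1 G1/S gene was higher and 7 were lower, and DESeq2 called 1 higher and 0 lower. The G1/S list summed to 2658 to 3104 CPM over the Day3 libraries and 3322 to 3419 CPM over the Day0 libraries. Among 16 p53 targets and cell cycle inhibitors 5 were higher and 1 lower, against 7.07% and 7.09% of all genes tested. The list does not hold the apoptosis gene PMAIP1 (NOXA), which fell 156-fold, as given above. The inhibitor CDKN1A (p21) had 16.5, 24.7 and 26.7 CPM at Day3, against 0.513, 1.85 and 2.07 CPM at Day0 (15.5-fold, adjusted p = 5.34e-05), and the stress-induced GADD45A had 95.8, 76.7 and 76.2 CPM at Day3, against 21, 13.4 and 13.8 CPM at Day0 (5.13-fold, adjusted p = 6.95e-06). The inhibitors CDKN1B and CDKN1C averaged 108 CPM at Day3 against 48.7 CPM at Day0 and 32.7 CPM at Day3 against 7.53 CPM at Day0, and the p53 target TP53I3 60.3 CPM at Day3 against 18.6 CPM at Day0. CDKN1B was 1.93-fold higher, short of the limit, without Day0 replicate 2, and the call of CDKN1C was lost without Day3 replicate 1, Day0 replicate 2 or Day0 replicate 3 (adjusted p = 0.0579 to 0.0779). The 1 lower was cyclin D1 (CCND1), which is also counted among the FGF-ERK and Wnt targets called lower. CCND1 had 57, 111 and 119 CPM at Day3, against 483, 121 and 93.6 CPM at Day0, so the groups overlapped (adjusted p = 0.0493). Without Day0 replicate 1, the high library, the fold was 1.12 (adjusted p = 0.745); the call was also lost without any 1 Day3 library (adjusted p = 0.0518 to 0.186) and with DESeq2 (adjusted p = 0.1003). These 4 were named because the counts are small.

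In glycolysis 6 of 20 genes were lower (median log2 -0.68) and 8 were kept, against 7.09% and 31.7% of all genes tested. The glucose transporter SLC2A3 had 429.6, 279.8 and 287 CPM at Day3, against 1787, 1556 and 1733 CPM at Day0 (5.1-fold lower; log2 -2.35, SE 0.22, adjusted p = 1.09e-06), and hexokinase HK2 had 70.5, 58.3 and 71.4 CPM at Day3, against 211, 139.8 and 198 CPM at Day0 (2.74-fold lower, adjusted p = 6.08e-05). SLC2A1, HK1, PDK1 and ALDOC also fell, whereas GAPDH, PGK1, TPI1, ALDOA and GPI were kept. Apart from PDK1, these genes were chosen after their values were seen. The call of ALDOC was lost without Day3 replicate 3 (adjusted p = 0.0552) and Day0 replicate 1 (adjusted p = 0.0687). Of 12 hypoxia targets 3 were lower, ADM, PDK1 at 19.96, 14.2 and 13.5 CPM at Day3, against 66, 58.1 and 59.8 CPM at Day0 (3.87-fold lower, adjusted p = 6.29e-05) and SLC2A1, and 3 were kept.

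Cholesterol synthesis was mostly kept, in 12 of 18 genes, against 31.7% of all genes tested. SC5DL, a sterol desaturase, was at the limit of the call (106 ± 26.8 CPM at Day3 and 212 ± 56.7 CPM at Day0, 2-fold lower, adjusted p = 0.0048). It was 1.77-fold lower without Day3 replicate 1 and 1.69-fold lower without Day0 replicate 1. Of 16 stress genes 5 were lower and 1 higher, against 7.09% and 7.07% of all genes tested. The higher member was DDIT4, at 182, 145 and 181 CPM at Day3, against 38.6, 32.6 and 106 CPM at Day0 (adjusted p = 0.00572). The serine synthesis enzymes PSAT1 and PHGDH fell 2.5-fold and 2.07-fold (adjusted p = 9.23e-05 and 0.000276); PHGDH was 1.92 to 1.99-fold lower, short of the limit, without Day3 replicate 1, Day3 replicate 2 or Day0 replicate 2.

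A comparison of the ends of the series passes over genes that were high only in between. By a rule set after the values were seen, 49 of the 10958 uncalled genes had a mean of at least 20 CPM on Day1 or Day2 and at least 5 times the higher of Day3 and Day0, 32 with the peak on Day1 and 17 on Day2. T averaged 0.511, 193, 61.3 and 0.765 CPM from Day0 to Day3, in day order. The Wnt inhibitor DKK4 averaged 0.0854, 148, 0 and 0 CPM, the mesendoderm factor EOMES 2.03, 356, 9.96 and 1.89 CPM and the secreted inhibitor CER1 0.77, 442, 0.624 and 0.442 CPM. MSGN1 averaged 0.115, 0.45, 32 and 0.216 CPM and CDX2 0.115, 3.84, 26.1 and 0.294 CPM. TBX6 averaged 0, 1.8, 14.7 and 0.507 CPM, and its call above rests on a level at Day3 far under its peak.

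The genes called at the ends took different courses too. TDGF1 averaged 815, 538, 12 and 2.76 CPM over the 4 days and NANOG 96.3, 68.9, 1.51 and 0.757 CPM. POU5F1 averaged 1052, 665, 187 and 51 CPM, and LIN28A 1476, 1194, 934 and 708 CPM. MEOX1 averaged 0.156, 0.31, 0.118 and 169.7 CPM and TCF15 3.43, 4.49, 2.42 and 308 CPM, with both at Day2 no higher than at Day0, whereas ALDH1A2 averaged 0.37, 0.121, 96.3 and 151 CPM. Some genes called higher at Day3 averaged more on Day2, and 3 chosen after their values were seen are given. ACTC1 averaged 26.5, 68.4, 139 and 77.0 CPM, STMN2 91.4, 193, 491 and 269 CPM and CXCR4 10.4, 17.0, 90.3 and 36.4 CPM. SALL4 averaged 70.7, 52.3, 51.5 and 77.1 CPM. These day means are a description with no test, and they share the Day0 libraries.

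**Figure D5:**
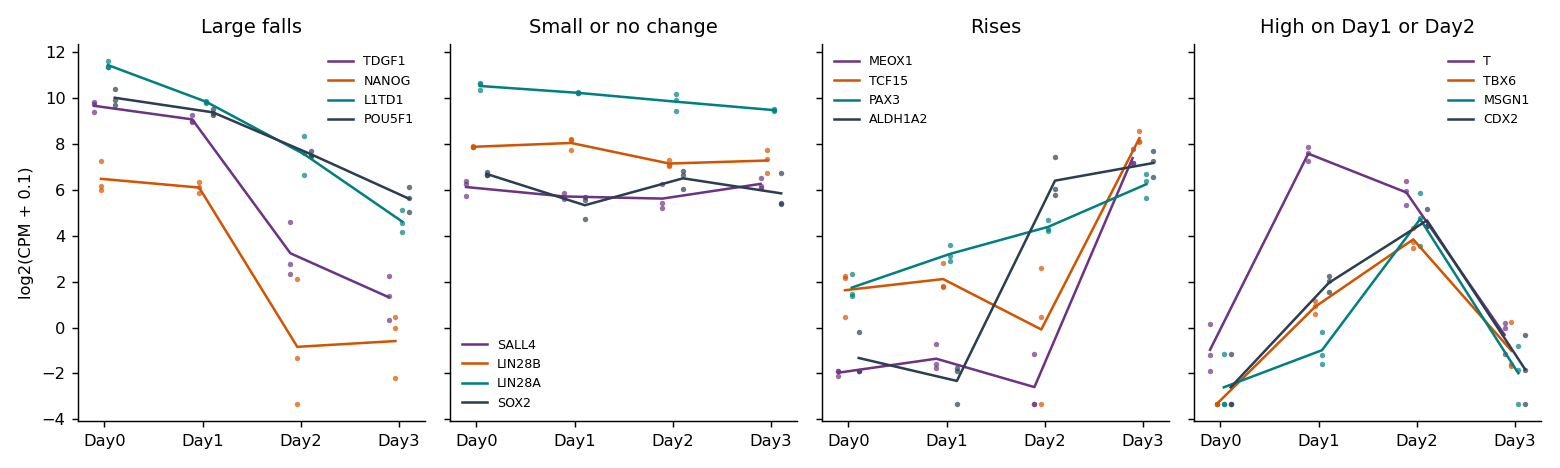
Log2(CPM + 0.1) from Day0 to Day3 for 4 genes with large falls, 4 with small or no change, 4 that rose and 4 high on Day1 or Day2. Points are single libraries, 3 a day, and lines join the day means; SALL4 stays level, MEOX1 and TCF15 climb between Day2 and Day3, and T, TBX6, MSGN1 and CDX2 return to the floor at Day3.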

How the data were processed

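Total RNA from 12 daily libraries (3 each of Day0 to Day3) was used, 6 of them in the comparison. Per the submitters' processing notes the tools and builds include Bowtie 0.12.2, hg19 and mm8; the counting program and gene annotation are not stated: not given in the sources used here. Gene-level values came as a table of expected counts, estimates that can hold fractions of a read, as the authors deposited it. The authors also deposited TPM values, scaled per transcript length, which served for percentiles and an alternative.

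Expected counts were rounded and genes of low counts removed (filterByExpr), leaving 12765. TMM factors and edgeR 4.0.16's quasi-likelihood test were applied to all 12 libraries with day as the group, in R 4.3.3. A call needed a Benjamini-Hochberg adjusted p under 0.05 and a log2 fold change of 1 or more in size. An uncalled gene was kept when its 95% interval lay within -1 to 1. For a group at 0, the bound on a fold takes 3 counts over that group. Ratios on 1 to 3 counts carry exact counting intervals, and these intervals and the floors cover counting error only. Alternatives used RLE factors, DESeq2 1.42.0, limma 3.58.1 on log2(TPM + 1) or log2(TPM + 0.1), no filter, only the 6 libraries, a replicate block, each library left out and, added after seeing the data, a copy index (the mean centred log2 CPM of 15 near-identical copy genes) and library totals without TMM. The procedure was tested on simulated data.

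Named genes were the 10 largest rises and 10 largest falls among called genes with at least 20 CPM at the higher day and no overlap, up to 2 called members of each list with the smallest adjusted p, every tested core gene, other stem cell genes that were kept, paralog pairs, and the stage markers T, TBX6, MSGN1, HES7, TCF15, MEOX1, PAX3, FOXC2 and ALDH1A2. Any other gene was named after its values were seen. The members and lists were chosen with earlier results of these data known. Lists share members, such as TWIST1 (somite and sclerotome), CDH1 (stem cell and epithelial) and L1TD1 (core and RNA binders), so their counts are not independent. Replicate numbers did not pair libraries (correlation of deviations 0.129, 0.0318 and -0.00279 for numbers 1, 2 and 3). Upstream windows came from RefSeq, which held 9506 of the tested genes. Other tools were Python 3.11.15, pandas 2.3.3, matplotlib 3.10.9 and Biopython 1.88. Results of a few genes are not reported here.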

Additional observations from a re-analysis of the deposited data

How the results depend on the processing

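The count of 1807 called genes ranged from 1647 to 2119 over the settings that keep all libraries and from 1408 to 1778 when 1 library was left out, with 0 genes called in the opposite direction in any setting run. The count of stem cell genes that fell, 44, ranged from 41 to 46. The count of those kept was 3; it was 1 with only the 6 libraries, 1 with a replicate block, 5 with the copy index and 1 to 3 when 1 library was left out, lowest without Day0 replicate 1. LIN28B and USP9X are therefore at the edge of the kept class, whereas SALL4 was in it each time; DESeq2 and TPM settings give no interval. With library totals in place of TMM, 54.5% of calls were higher against 49.9%, and the median log2 fold change was 0.106. The replicate block gave 1772 calls, and replicate numbers did not pair the libraries; under it TBX6 and CDX1 had adjusted p = 0.0537 and 0.0609. Of 84 called named genes, 73 kept the call in every setting. Log2 changes of a few uncalled genes, and of CDX1, crossed or reached 0 when 1 library was left out. The cause was not tested. SALL4 ranged from -0.0460 to 0.272, FGFR1 from -0.0240 to 0.218 and T from -0.0319 to 1.38. CDX1 ranged from 0 to 5.36, CDX2 from -0.102 to 3.93 and MSGN1 from -0.0997 to 3.51. The copy index and library totals were chosen after seeing the data. Depth limits genes near 3 counts a library, such as the factors of muscle and sclerotome.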

Other observations

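One Day0 library held 32 genes far above the other Day0 libraries, and some of them mark tissues other than stem cells. The highest of the 32 was CPT1A, at 93.0, 8.27 and 7.27 CPM in replicates 1, 2 and 3, and LEFTY1 of the stem cell list was also among them. The regulators that follow were picked from the 32 after their values were seen. In Day0 replicate 1, the forkhead gene FOXC1 was at 43.7 CPM, against 0.336 and 0.689 CPM in replicates 2 and 3. ZIC1, a zinc finger gene of neural tissue and somites, was at 81.9, 2.35 and 2.59 CPM in replicates 1, 2 and 3. SIX6, a homeobox gene of the eye and pituitary, was at 36.8, 0.504 and 0.517 CPM, and TFAP2C, which acts in trophoblast and germ cells, at 32.2, 1.85 and 1.90 CPM. TBX5 of heart and forelimb and FOXA1 of endoderm were each at 11.9 CPM in replicate 1 and at 0.065 CPM or 0 in the other Day0 libraries. The regulators named here belong to different lineages and were high together in that library. Pluripotency core genes went both ways there. POU5F1 and NANOG, at 1355 and 153 CPM, were above the other Day0 libraries, while TDGF1, DNMT3B and LIN28A, at 667, 1316 and 1289 CPM, were below them. At Day3 FOXC1 was at 223, 216 and 286 CPM, whereas SIX6 was at 0, 0 and 0.117 CPM. The limits that picked the library's 32 genes were chosen after its values were seen, and what sets the library apart was not tested.

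Of the 15 genes with the highest mean TPM on each day, 8 were on both lists. NPM1, a nucleolar chaperone, came first on both, at 13095 TPM at Day3 and 16631 TPM at Day0. The myosin light chain gene MYL6 was called higher, at 6870.1 TPM at Day3 and 2723 TPM at Day0. The actin-binding thymosin TMSB4X and the nucleolar protein gene NCL were called lower, TMSB4X at 4775 TPM at Day3 and 10713 TPM at Day0, and NCL at 3467 TPM at Day3 and 7251 TPM at Day0. The cause of these differences was not tested.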
